A study of Mus musculus with 2 samples.

Results

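Eph receptors are the largest family of receptor tyrosine kinases, and 9 of them, chosen by gene symbol, were followed here in mouse hippocampal tissue taken 19 days after birth: Epha3, Epha4, Epha5, Epha6, Epha7, Ephb1, Ephb2, Ephb3 and Ephb6. Each symbol matched 1 of the 33696 genes in the files. The measurement was single-nucleus RNA sequencing, which counts the RNA molecules of each gene in single nuclei by their unique molecular identifiers (UMIs). There were 2 libraries. The Control library came from Cicflox/flox mice, and the other, labelled knockout (KO here), from littermates of the genotype Emx1-Cre; Cicflox/flox, so the floxed Cic allele was homozygous in all animals and the groups differed by Cre. Emx1-Cre drives recombination in the lineage of the dorsal telencephalon, which gives rise to hippocampal excitatory neurons, astrocytes and oligodendrocyte lineage cells but not to most inhibitory neurons or microglia. For each genotype, tissue of 3 animals (1 hippocampus per animal; 1 female, 2 male) was combined before nuclei were extracted. Library and genotype therefore coincide, there is no replicate error, and no p-value or standard error is given for any difference.

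An Eph receptor binds an ephrin on the surface of a neighbouring cell, and signals can pass into both cells. EphA receptors mainly bind the lipid-anchored ephrin-A ligands and EphB receptors mainly the transmembrane ephrin-B ligands, with Epha4 binding both. In the developing hippocampus the family is known for guiding axons to their layers and fields, including the mossy fibers that run from dentate granule cells to CA3, and for shaping dendritic spines. Cic encodes Capicua, a transcriptional repressor that binds short octamers in DNA, and the title of the series concerns the refinement of mossy fiber targeting.

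The promoters are shown because the gene deleted in the labelled genotype encodes a DNA-binding repressor. RefSeq promoter windows on GRCm38.p6, from 250 bases before to 50 bases after the start of transcription, matched 9 of 9 members, with 2 windows for Epha7. The 250 bases before the start are printed for the 2 members with the largest ratio in granule nuclei and for Epha7, the member with the lowest ratio in CA3-like nuclei. Each is written 5′ to 3′ on the strand of the gene, with CG dinucleotides in capitals. Ephb1 lies at chr9:102354694-102354943 on the minus strand, Epha3 at chr16:63864176-63864425 on the minus strand and Epha7 (first window) at chr4:28812881-28813130 on the plus strand.
Ephb1: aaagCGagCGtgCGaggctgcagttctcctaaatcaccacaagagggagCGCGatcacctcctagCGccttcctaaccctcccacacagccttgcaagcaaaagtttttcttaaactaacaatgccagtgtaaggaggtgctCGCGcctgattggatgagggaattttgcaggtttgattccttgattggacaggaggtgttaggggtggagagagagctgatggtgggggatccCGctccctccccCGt
Epha3: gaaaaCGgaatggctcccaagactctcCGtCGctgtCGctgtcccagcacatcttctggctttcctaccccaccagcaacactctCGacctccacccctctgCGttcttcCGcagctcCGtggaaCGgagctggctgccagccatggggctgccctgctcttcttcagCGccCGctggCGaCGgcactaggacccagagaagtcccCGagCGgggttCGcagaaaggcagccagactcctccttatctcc
Epha7: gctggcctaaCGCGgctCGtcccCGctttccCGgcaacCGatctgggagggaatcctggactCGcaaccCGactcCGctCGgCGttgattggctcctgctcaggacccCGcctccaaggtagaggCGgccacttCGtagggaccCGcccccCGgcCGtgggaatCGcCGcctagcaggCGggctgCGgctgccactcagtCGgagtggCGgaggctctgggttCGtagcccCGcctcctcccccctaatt

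All windows were searched on both strands for the CIC octamers TGAATGAA and TGAATGGA, and a window was counted once whichever it held. None of the 10 member windows held either, against 2.47% of all 32817 windows of the same length. Such a match or its absence describes these letters in these windows only. What the member windows had in common was base composition. They held 14 (Ephb1) to 34 (Ephb6) CG dinucleotides in 300 bases, where the median over all windows was 7, and their GC content ran from 55.7% to 76.3% against a median of 52.7%. Ephb1 had the fewest CG dinucleotides and the lowest GC content of the members.

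The libraries held 25907 and 23207 barcodes with 314453640 and 252995761 UMIs, and 21837 and 20529 nuclei were kept after filters and removal of called doublets, with medians of 9783 and 8765 UMIs. The libraries shared 175 barcodes (0.675% and 0.754% of their barcodes). Nuclei fell into 38 clusters, from which 17 classes named by fixed markers and 3 clusters without a name (0, 7 and 14) were compared; a further low-depth cluster was left out. By mean marker fold cluster 0 was nearest to immature granule cells and cluster 7 to CA1. Neither was named, because its 10 leading genes held a marker of another list and none of its own. In cluster 0 this was Calb2 of the hilar mossy list, and in cluster 7 Dcn of the fibroblast list. The immature dentate granule-like class was cluster 11, whose mean log2 fold of 0.58 was near the minimum of 0.5 for a name. The mean for the same markers in the unnamed cluster 0 was 2.865. With a minimum of 1000 detected genes, a cluster with many of the same leading genes as cluster 11 was named dentate granule-like. Different clusters held most of the dentate granule-like class in the 2 libraries: cluster 1 had 978 Control and 3263 KO nuclei and cluster 3 had 3417 and 134. Cic itself was not lower in the library labelled KO. Granule nuclei had 9.01 CPM of it (UMIs of a gene scaled to the same total in each class) in Control and 12.5 in labelled KO, a log2 ratio of 0.47 (95% counting interval 0.29 to 0.66). CA3-like (0.80), CA1-like (0.87) and oligodendrocyte-like nuclei (0.70) also had intervals above 0. The interval spanned no change in astrocyte-like (0.15), Lhx6 inhibitory-like (0.03), Adarb2 inhibitory-like (-0.13) and microglia-like nuclei (-0.08), among others. The deleted exons are not given in the sources used here, so a count near the end of the transcript does not check the deletion, and every direction below is between the libraries as labelled. Free RNA was present: microglia-like nuclei, which should lack granule transcripts, carried 7 granule markers at 364 and 308 CPM.

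Levels are in CPM, with intervals that cover counting error only. Because longer transcripts can give more nuclear UMIs, a gene is compared across classes and not with other genes. In the Control library the EphA receptors were mostly neuronal. Epha3, a receptor of ephrin-A5, was highest in Cajal-Retzius-like nuclei at 1314 CPM, then cluster 14 at 934, Adarb2 inhibitory-like nuclei at 663 and CA3-like nuclei at 511. It stood at 307 in CA1-like, 187 in dentate granule-like and 111 in CA2-like nuclei and at 6.17 in oligodendrocyte-like nuclei. Within the CA3-like class the level depended on the cluster: cluster 20 had 34.2, below CA2-like nuclei, and clusters 8 and 28 had 617 and 631.

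Epha4, the receptor that binds both ephrin classes, was highest in cluster 0 at 952 CPM and immature dentate granule-like nuclei at 875, followed in the mature fields by granule (584), CA2-like (555), CA3-like (507) and CA1-like nuclei (486). Glia were not the lowest for Epha4. Oligodendrocyte-like nuclei had 267, above subicular or cortical excitatory-like nuclei at 142, and deep-layer excitatory-like nuclei were lowest at 49.1. Epha5, a receptor of ephrin-A ligands that is known in topographic mapping, was highest in CA2-like nuclei at 2344 and next in subicular or cortical excitatory-like nuclei at 2003. Between cluster 0 and immature dentate granule-like nuclei Epha5 differed steeply, at 127 and 1199.

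Epha6, an ephrin-A receptor, stepped down from class to class. CA1-like nuclei had 8345 CPM, CA3-like 5629, CA2-like 4181 and dentate granule-like nuclei 2034, and it was lowest, at 50.8, in oligodendrocyte-like nuclei. By cluster this order did not hold. CA1-like cluster 22 had 4090 and CA3-like cluster 20 had 3467, both below CA2-like nuclei. Epha7, known for effects on dendrites and cortical maps, was highest in the granule lineage, at 1257 in immature and 1249 in mature dentate granule-like nuclei, which did not differ beyond counting error. It was 731 in CA1-like and 690 in CA3-like nuclei and 32.8 in oligodendrocyte-like nuclei.

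Among the EphB receptors, Ephb1 had a glial rather than a neuronal maximum. Oligodendrocyte-like nuclei had 827 CPM, radial glia-like nuclei 801 and committed oligodendrocyte precursor-like nuclei 776, neighbours whose counting intervals overlapped. Among the main neurons CA3-like nuclei had 210, granule nuclei 108 and CA1-like nuclei 21, the last beside 11.2 in microglia-like nuclei. Ephb2, which acts in synapse formation, was highest in immature dentate granule-like nuclei at 129, then cycling progenitor-like nuclei at 122 and cluster 0 at 119, with overlapping intervals between neighbours. CA3-like nuclei had 97.3, granule nuclei 77.8 and CA1-like nuclei 60.8. Ephb3 was sparse in every class, from 0.290 to 13.0 CPM, with the top in radial glia-like nuclei from 19 UMIs. Ephb6, whose kinase domain lacks activity, was highest in Cajal-Retzius-like nuclei at 42.1 from 43 UMIs, and no other class passed 10.7.

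**Figure D1:**
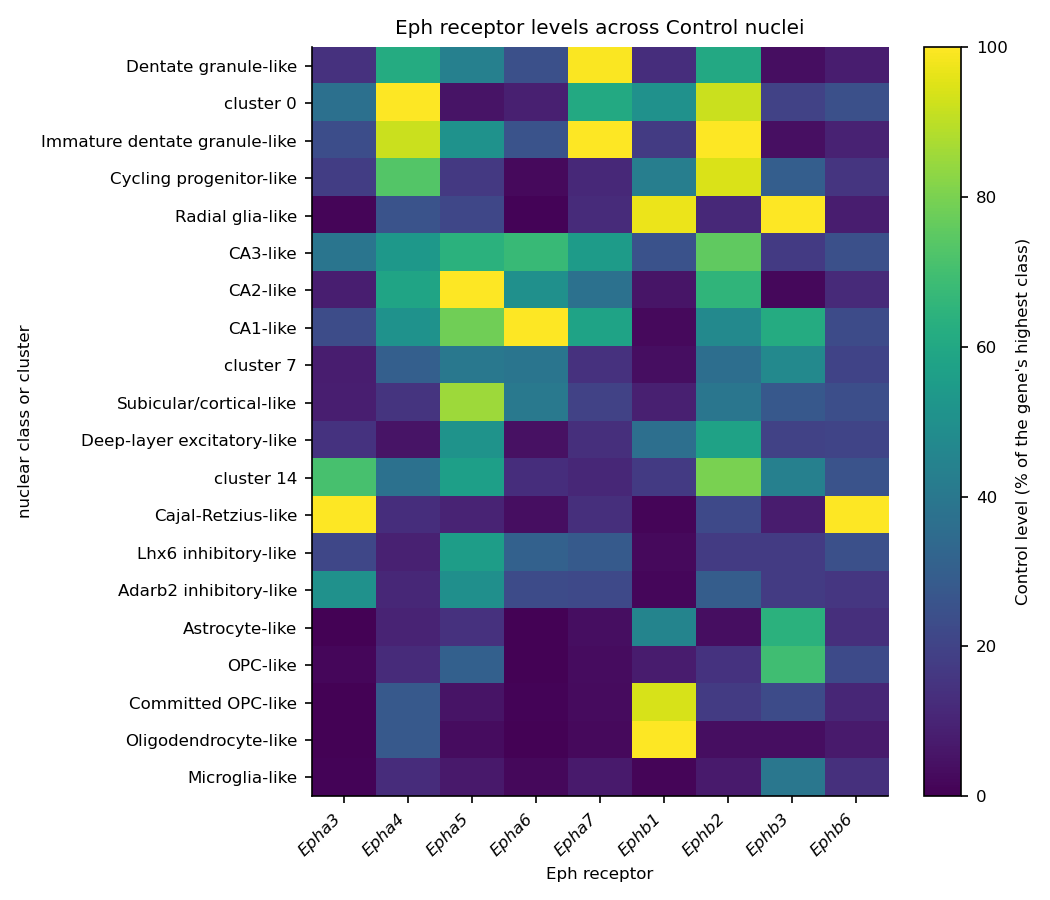
Level of each Eph receptor in the Control library by nuclear class or cluster (rows), as percent of the gene's highest class (colour), so that colours compare classes within a column only. Ephb1 peaks in oligodendrocyte-like nuclei (827 CPM), Epha6 in CA1-like nuclei (8345 CPM) and Epha7 in both granule classes (1257 and 1249 CPM).

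Over the 17 named classes of the Control library, levels of Epha6 and Epha7 had the highest Pearson correlation of log2(CPM + 1) among member pairs (0.89), followed by Epha5 and Epha6 (0.83). The most negative values were those of Ephb1 with Ephb6 (-0.56), Epha3 (-0.52) and Epha6 (-0.49). These values describe classes of 1 library, which share their depth and free RNA. The gene most like Ephb1 by the same measure was 9630041A04Rik (0.93), which overlaps Ephb1 on the opposite strand in GENCODE M21. The genes most like the others were Marchf4 for Epha3 (0.95), Cerkl for Epha4 (0.84), Begain for Epha5 (0.94), Trpc4 for Epha6 (0.97), Plxna4os3 for Epha7 (0.96), Rnf165 for Ephb2 (0.94), Cbr3 for Ephb3 (0.85) and Gm44812 for Ephb6 (0.86).

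The first comparison was between labelled KO and Control in dentate granule-like nuclei (4395 and 3397 nuclei, Control first), the cells that send the mossy fibers. Ephb1 was the only member that differed by at least 2-fold. It had 5860 UMIs (108 CPM) in Control and 17650 UMIs (461 CPM) in labelled KO, a log2 ratio of 2.09 (2.05 to 2.13). Epha3 came next, at 187 and 348 CPM (0.89, 0.86 to 0.93), below that size. A gene was counted as differing in size when it changed by at least 2-fold and its higher value rested on 50 UMIs and 10 CPM or more. By this rule 1 of the 7 members with those minimum counts was higher and 0 were lower, where 2.29% of all genes with minimum counts were higher and 1.09% lower.

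Ephb1 was also more widely detected. At least 1 UMI was found in 57.9% (exact binomial interval 56.4 to 59.3%) of Control and 95.4% (94.7 to 96.1%) of KO-labelled granule nuclei, and after each nucleus was thinned to 2000 UMIs in 19.2% and 57.3%, with 3 and 6 shallower nuclei left out. Microglia-like nuclei, which should lack it, had a UMI in 2.22% and 1.83%, at median depths of 2133 and 1719 UMIs against 11780 and 10830 in granule nuclei. The median granule nucleus held 1 Ephb1 UMI in Control and 4 in labelled KO, and 5.16% and 50.0% held at least 5. The rise was thus broad and not confined to a small group of nuclei, although the highest count in a nucleus was 34 in Control and 31 in labelled KO.

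The Ephb1 difference was present within the clusters that make up the class. Cluster 1 alone had 173 and 464 CPM (1.43, 1.36 to 1.5) and cluster 3 alone 92.3 and 384 (2.06, 1.93 to 2.18). With the Control mix of clusters in both libraries the ratio was 1.88. In female nuclei, which by the labels come from 1 mouse per library, it was 2.22 (101 and 471 CPM), and in male nuclei, from 2 mice, 2.02 (111 and 453 CPM). These splits are not replicates. For Epha3 the same mix of clusters lowered the ratio to 0.47, with 0.72 in cluster 1 and 0.39 in cluster 3, although female and male nuclei gave 0.96 and 0.84.

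The other EphA receptors of granule nuclei differed less, and not in one direction. Epha5 had 1018 CPM in Control and 795 in labelled KO (-0.36, -0.38 to -0.34). Epha7 had 1249 and 1010 (-0.31, -0.32 to -0.29). Both were lower in clusters 1 and 3 alike. Epha6 had 2034 and 2335 (0.20, 0.19 to 0.21) but -0.01 in cluster 1 and 0.03 in cluster 3. Epha4 had 584 and 546 (-0.10, -0.12 to -0.07), with -0.42 in cluster 1 and -0.20 in cluster 3. Ephb2 had 77.8 and 92.0 (0.24, 0.18 to 0.31), with 0.06 and 0.07 in the clusters. Ephb3 had 25 and 17 UMIs and Ephb6 180 and 78 UMIs (3.33 and 2.04 CPM), under the minimum. By counting intervals 4 members were higher and 3 lower, beside 31.8% and 26.7% of all genes with minimum counts, so such intervals alone single out no member.

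Markers moved in the same nuclei. All 7 markers of the dentate granule list were present and their sum was 4048 CPM in Control and 2954 in labelled KO. The 7 immature granule markers summed to 88.8 and 147, and 6 Cajal-Retzius markers to 7.36 and 47.4, with no member of these lists at 0 in either library. Their part in the Ephb1 and Epha3 results was not tested. Cajal-Retzius-like nuclei themselves held Ephb1 at 11.8 and 23.8 CPM and immature dentate granule-like nuclei at 142 and 249. Cluster 0, nearest to immature granule cells by mean marker fold, held it at 419 and 356. Granule nuclei held 108 in Control and 461 in labelled KO.

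**Figure D2:**
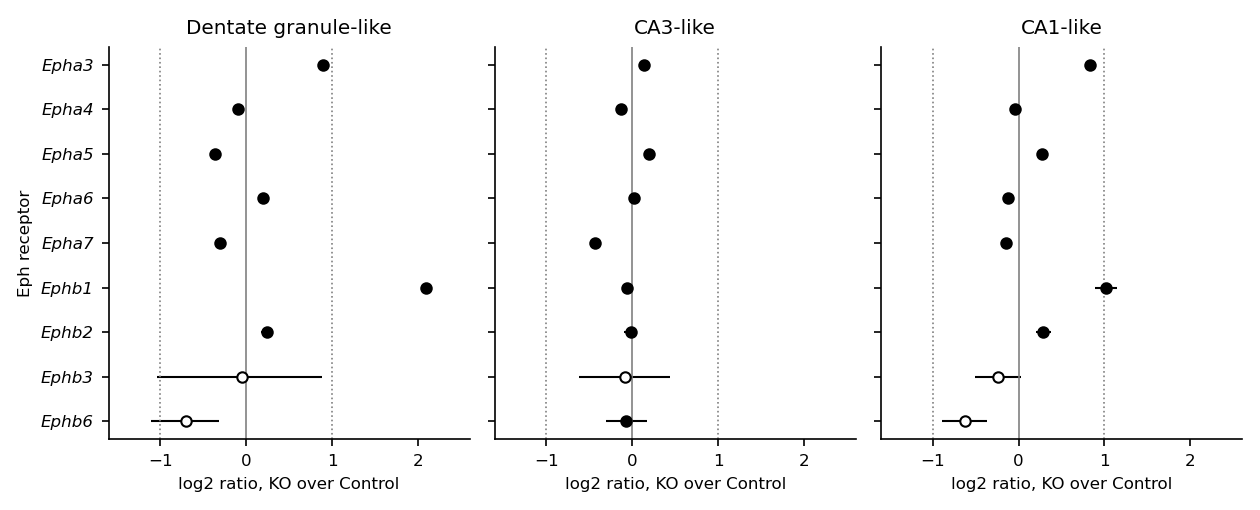
Log2 ratio of labelled KO over Control for each Eph receptor in 3 nuclear classes, with 95% intervals for counting error (horizontal bars, often smaller than the point). Open circles mark members under the minimum counts and dotted lines mark 2-fold; Ephb1 stands at 2.09 (granule), -0.06 (CA3) and 1.02 (CA1).

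Cycling progenitors and immature granule cells, with cluster 0 beside them, are set next to granule nuclei here. Cluster 0 has no name under the naming rule, although 6 immature granule markers were raised in it, against 4 in cluster 11, the named immature class. Its place relative to the granule lineage was not tested. In Control Ephb1 was 352 CPM in cycling progenitor-like nuclei, 419 in cluster 0, 142 in immature dentate granule-like and 108 in dentate granule-like nuclei. In labelled KO the values in the same order were 208, 356, 249 and 461. Ephb1 was thus lower than Control in the first pair of groups (-0.76, -0.99 to -0.54 and -0.23, -0.30 to -0.16) and higher in the last pair (0.81, 0.67 to 0.94 and 2.09). These groups are nuclei of 1 age and not a time course.

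Epha3 was 310 CPM in immature and 187 in mature dentate granule-like nuclei of Control, and 348 in both in labelled KO. Cluster 0 had 487 and 505. In cycling progenitor-like nuclei Epha3 was 239 and 441 (0.88, 0.69 to 1.08). Epha7 was lower in labelled KO in all 4 groups, at 144 and 103, 763 and 539, 1257 and 1093, and 1249 and 1010. Of its 222 and 121 UMIs in cycling progenitor-like nuclei, 147 and 98.2 were estimated as free RNA. Microglia-like nuclei also held less Epha7 in labelled KO, with means of 0.196 and 0.105 UMIs per nucleus, unscaled, at median depths of 2133 and 1719 UMIs. The part of free RNA in the lower values was not tested. Epha4 was lower in all 4 too, with the widest gap in cluster 0 at 952 and 794 (-0.26, -0.31 to -0.22). Epha5 was 1199 and 827 in immature dentate granule-like nuclei (-0.54, -0.60 to -0.48), where 0 of 7 members with minimum counts passed 2-fold, beside 0.755% of all genes higher and 0.378% lower. In cluster 0 none of 8 passed, beside 0.26% and 0.0416%. In cycling progenitor-like nuclei none of 7 passed, beside 0.359% and 0.306%. That count moved to 2 with doublets kept (Epha6 and Epha7) and to 1 in male nuclei (Epha3) or with free RNA subtracted (Epha7). Cluster 0 gained Epha6 with free RNA subtracted. The free RNA estimate was too high for some members in these groups. For Epha6 in cycling progenitor-like nuclei it was 789 and 655 UMIs, above the 316 and 162 counted. For Epha5 in cluster 0 it was 1453 and 1637, above 1142 and 967. The gains after subtraction therefore cannot be relied on. No share of all genes is given for these settings.

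**Figure D3:**
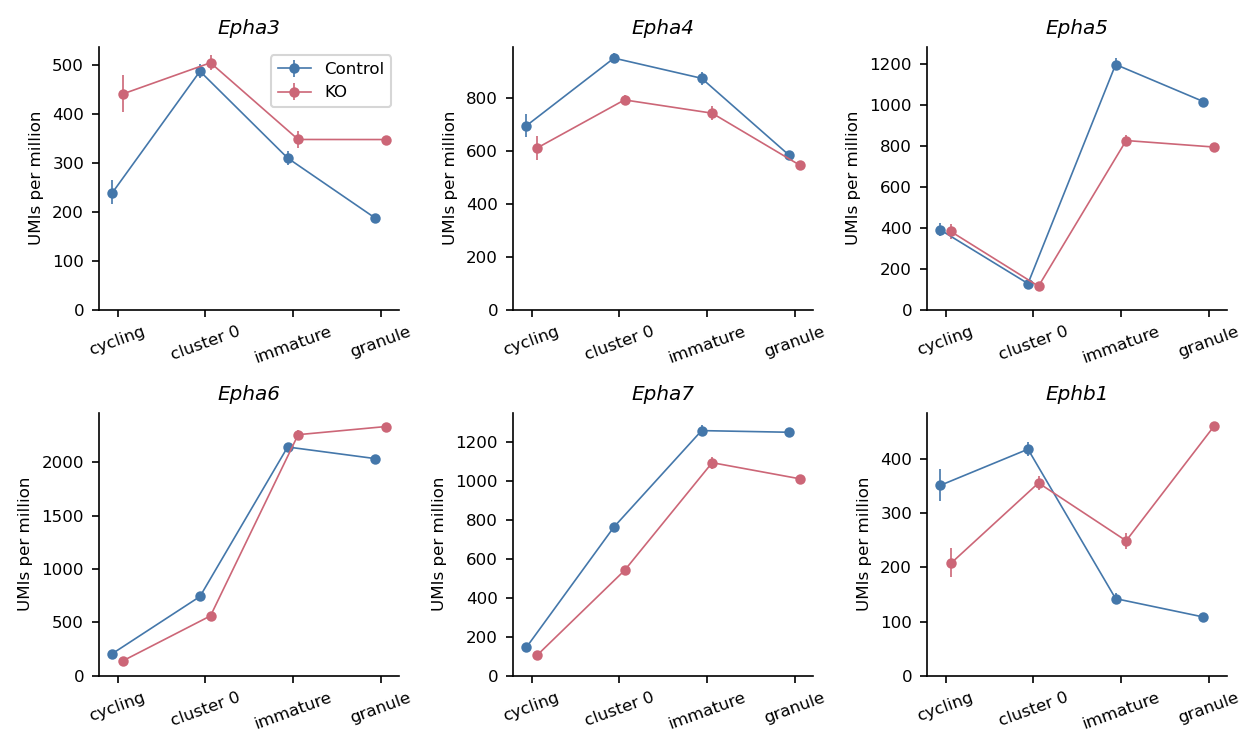
Levels of 6 Eph receptors (CPM, linear axes from 0) in cycling progenitor-like nuclei, cluster 0, immature and mature dentate granule-like nuclei of the Control (blue) and labelled KO (red) libraries, with 95% counting intervals. Lines join groups of 1 library only to guide the eye; Ephb1 ends at 108 CPM in Control and 461 in labelled KO.

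CA3-like nuclei, the targets of the mossy fibers, had no member past 2-fold (0 of 8 with minimum counts, beside 1.24% of all genes higher and 0.304% lower), with 1324 Control and 1279 KO nuclei. Ephb1 had 210 CPM in Control and 201 in labelled KO (-0.06, -0.11 to -0.01). The largest difference was that of Epha7, with 690 and 509 (-0.44, -0.47 to -0.41), and it was lower in each of the 3 clusters of the class (8, 20 and 28), by -0.49, -0.26 and -0.59. Epha5 had 1495 and 1714 (0.20, 0.18 to 0.22), Epha3 511 and 562 (0.14, 0.11 to 0.17) and Epha4 507 and 462 (-0.13, -0.17 to -0.10). By counting intervals 3 members were higher and 3 lower, beside 37% and 16.2% of all genes with minimum counts. Epha6 had 5629 and 5699, Ephb2 97.3 and 96.1 and Ephb6 10.3 and 9.80.

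The clusters of the CA3-like class differed from each other in Epha3 far more than the libraries did. Cluster 8 had 617 CPM in Control and 690 in labelled KO and cluster 28 had 631 and 601. Cluster 20 had 34.2 and 64.9 (0.93, 0.67 to 1.19). In Control, some CA3 markers were lower in cluster 20 than in cluster 8, such as Iyd (2.06 and 23.3 CPM) and Nectin3 (156 and 491). The same held for Trps1 (489 and 1787) and Grik4 (802 and 1118), while Bok and Cpne4 were higher in cluster 20. Of the 5 hilar mossy cell markers, Calb2 (60.1 and 52.8 CPM), Drd2 (34.5 and 38.0) and Ajap1 (106 and 84.6) were highest in cluster 28. Calcrl was lowest there, at 4.18 and 9.08 against 149 and 123 in cluster 20, and Nmb was low in all 3 clusters, from 2.80 to 5.78. In cluster 28 the Ephb1 level, 60.6 and 73.5, was below the 233 and 231 of cluster 8.

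In CA1-like nuclei (1912 and 1713) the member past 2-fold was again Ephb1, at 782 UMIs (21 CPM) in Control and 1251 UMIs (42.5 CPM) in labelled KO (1.02, 0.89 to 1.15). This was 1 of 7 members with minimum counts, beside 3.39% of all genes higher and 0.644% lower. The 2 clusters of the class went in opposite directions. Cluster 4, with 1730 and 1363 nuclei, had 16.5 and 12.4 CPM (-0.41, -0.63 to -0.20), and cluster 22, with 182 and 350 nuclei, had 54.0 and 137 (1.34, 1.13 to 1.55). With the Control mix of clusters in both libraries the ratio was 0.38, and thinned to 2000 UMIs per nucleus it was 0.52. A UMI was found in 22.4% (20.6 to 24.4%) of Control and 24.8% (22.7 to 26.9%) of KO-labelled nuclei. Markers of subicular or cortical excitatory nuclei summed to 169 CPM in Control and 421 in labelled KO in this class, with none of 6 at 0; their part was not tested.

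Epha3 was more even across CA1. It had 307 CPM in Control and 549 in labelled KO (0.84, 0.80 to 0.87), with 274 and 487 in cluster 4 (0.83) and 549 and 740 in cluster 22 (0.43), and female and male nuclei gave 0.81 and 0.86. Epha5 had 1839 and 2216 (0.27, 0.25 to 0.28) and Ephb2 60.8 and 74.2 (0.29, 0.20 to 0.37). Epha7 had 731 and 660 (-0.15), Epha6 8345 and 7654 (-0.12) and Epha4 486 and 471 (-0.04), so that by counting intervals 4 members were higher and 3 lower, beside 43.3% and 19.5% of all genes with minimum counts. The clusters of the class went opposite ways for these 3 receptors. In cluster 4 Epha7 was -0.13, Epha6 0.04 and Epha4 -0.05, and in cluster 22 they were 0.22, -0.46 and 0.19. Median-of-ratios scaling moved all CA1-like ratios down by 0.10, which put Ephb1 at 0.91 and Epha3 at 0.74. In cluster 7, near CA1 by its markers, Ephb1 had 29.5 and 64.3 CPM (1.13, 0.99 to 1.27) and was the only 1 of 7 members past 2-fold, beside 2.23% of all genes higher and 0.61% lower. Thinned to 2000 UMIs per nucleus it was 0.997, just under 2-fold. Epha3 there had 108 and 164 (0.61, 0.53 to 0.69).

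**Figure D4:**
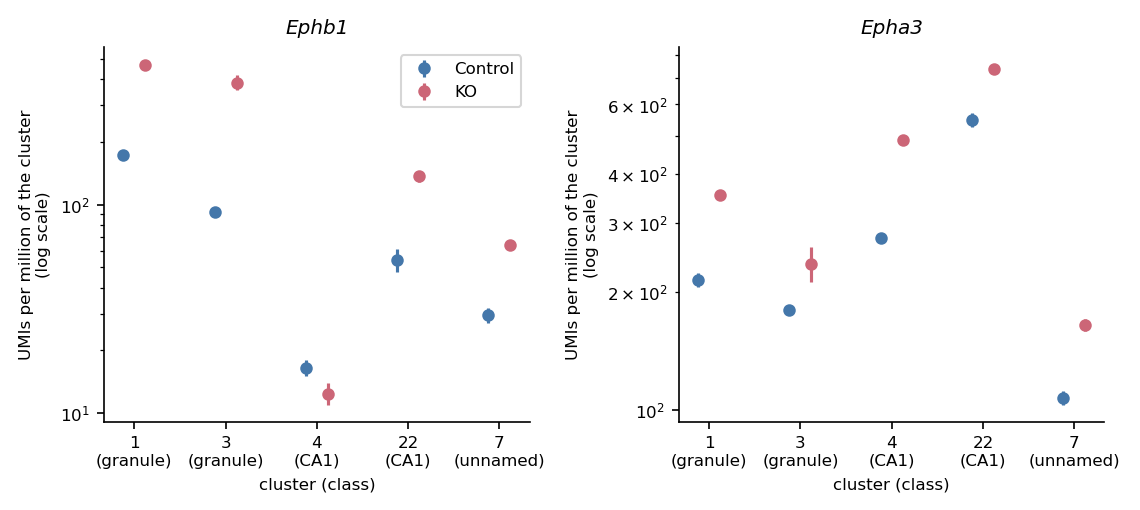
Levels of Ephb1 and Epha3 (CPM, log axes) in the clusters of the dentate granule-like (1, 3) and CA1-like (4, 22) classes and in cluster 7, for Control (blue) and labelled KO (red), with 95% counting intervals. Ephb1 is higher in labelled KO in 4 of these clusters and lower in cluster 4 (16.5 and 12.4 CPM), while Epha3 is higher in all 5.

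Ephb1 was lower in labelled KO in oligodendrocytes and their committed precursors, but not in the other glia. Oligodendrocyte-like nuclei (1193 and 943) had 827 CPM in Control and 594 in labelled KO (-0.48, -0.53 to -0.43), and committed oligodendrocyte precursor-like nuclei 776 and 548 (-0.50, -0.59 to -0.41). Female and male oligodendrocyte-like nuclei gave -0.61 and -0.41. The clusters of the class differed in size of effect, with -0.16 (-0.23 to -0.08) in cluster 9 and -0.94 (-1.01 to -0.87) in cluster 17. Astrocyte-like nuclei had 372 and 395 (0.09, 0.02 to 0.16), oligodendrocyte precursor-like nuclei 63.0 and 66.3, and radial glia-like nuclei 801 and 979 (0.29, 0.16 to 0.42). Epha4 was also lower in oligodendrocyte-like nuclei, at 267 and 184 (-0.54, -0.63 to -0.45; -0.74 in cluster 9 and -0.24 in cluster 17), in a class where the median log2 ratio over all genes with minimum counts was -0.10.

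Epha3 passed the size rule in both oligodendrocyte classes, from low counts. It had 62 and 107 UMIs (6.17 and 12.9 CPM, 1.06) in oligodendrocyte-like nuclei, 1 of 6 members with minimum counts beside 2.14% of all genes higher and 1.14% lower. Committed oligodendrocyte precursor-like nuclei had 24 and 85 UMIs (7.17 and 28 CPM, 1.94), 1 of 7 members beside 1.08% higher and 0.202% lower. Microglia-like nuclei, which are shallower, had 11.5 and 16.2 CPM, and a UMI was found in 2.28% and 2.51% of them, against 3.86% and 6.26% of oligodendrocyte-like and 3.70% and 10.1% of committed precursor-like nuclei. Median depths, Control first, were 2133 and 1719 UMIs in microglia-like, 8109 and 8486 in oligodendrocyte-like and 6956 and 6007.5 in committed precursor-like nuclei. The oligodendrocyte-like ratio was 1.78 (1.16 to 2.46) in cluster 9 and 0.02 (-0.70 to 0.76) in cluster 17. With doublets kept the ratios of the classes were 0.44 and 0.56. The free RNA estimated from granule markers in microglia-like nuclei was 193 and 181 Epha3 UMIs in oligodendrocyte-like and 74.2 and 89.6 in committed precursor-like nuclei. This was more than the UMIs observed, so that 0 were left after subtraction in both libraries. An estimate above the observed count is too high for that class, so the subtraction cannot test the call. By ratio and minimum counts together, Epha3 also lost its call in female nuclei and after thinning in both classes, and in male committed precursor-like nuclei. In committed precursor-like nuclei these 3 ratios stayed past 2-fold, and the minimum counts were not reached.

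**Figure D5:**
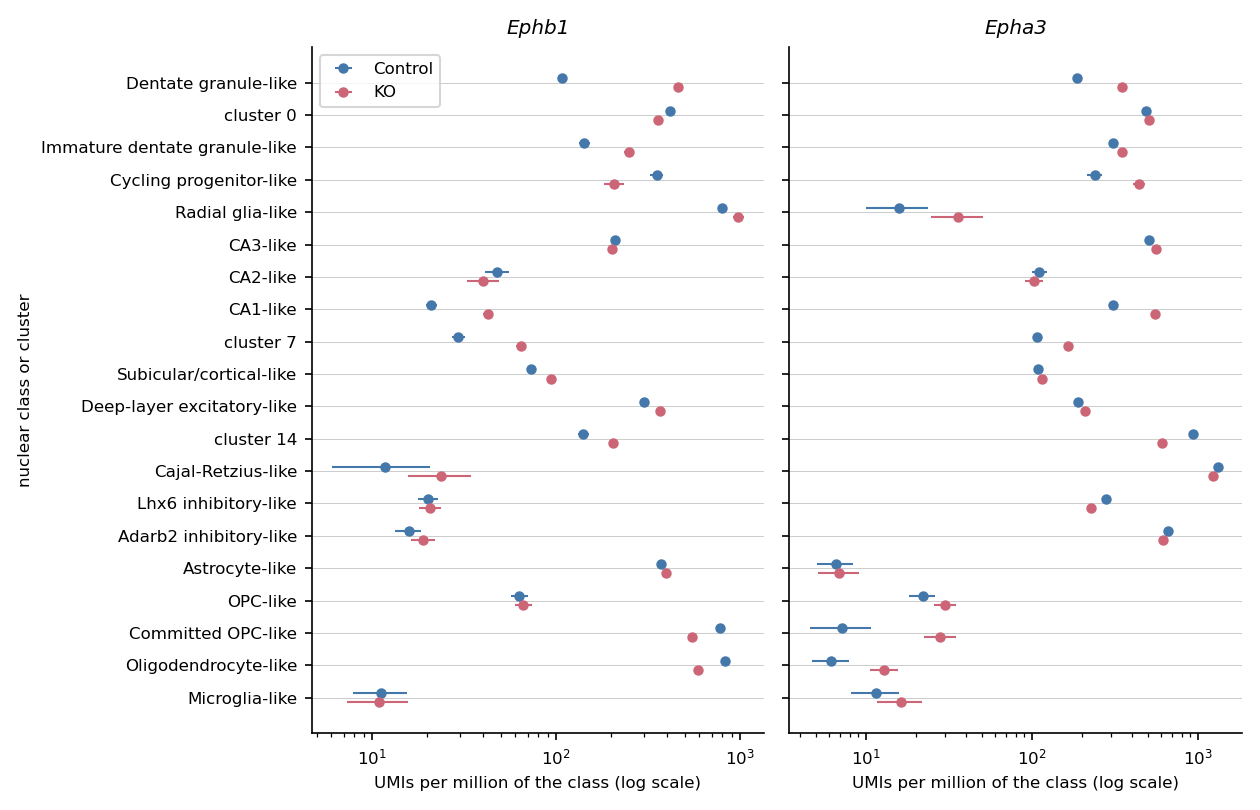
Levels of Ephb1 and Epha3 (CPM, log axes) in 17 named classes and clusters 0, 7 and 14 for Control (blue) and labelled KO (red), with 95% intervals for counting error. Ephb1 is higher in labelled KO in granule nuclei (108 and 461 CPM) and lower in oligodendrocyte-like nuclei (827 and 594), and Epha3 is higher in granule (187 and 348) and CA1-like nuclei (307 and 549); OPC stands for oligodendrocyte precursor.

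Most inhibitory neurons arise outside the Emx1 lineage. Lhx6 inhibitory-like nuclei had Ephb1 at 20.2 and 20.6 CPM (0.03, -0.25 to 0.30) and Epha3 at 279 and 226 (-0.30, -0.38 to -0.23). Adarb2 inhibitory-like nuclei had Ephb1 at 15.8 and 19.0 (0.26, -0.06 to 0.59) and Epha3 at 663 and 615 (-0.11, -0.16 to -0.06). Whether these ratios differ from those of excitatory nuclei could not be tested with 1 library per group. Among the remaining classes Epha7 was lower in deep-layer excitatory-like nuclei, at 171 and 102 (-0.75, -0.90 to -0.60), CA2-like nuclei, at 471 and 326 (-0.53, -0.65 to -0.41), and subicular or cortical excitatory-like nuclei, at 247 and 189 (-0.39, -0.45 to -0.32). In the last class this was the value of cluster 12 (-0.55), while cluster 21 was at -0.02 (-0.13 to 0.10) and cluster 27 at 0.57 (0.05 to 1.10). Outside neurons, Epha7 was also lower in microglia-like nuclei (means of 0.196 and 0.105 UMIs per nucleus) and in oligodendrocyte-like nuclei (329 and 171 UMIs). These values are not scaled and overstate the falls. Median depths were 2133 and 1719 UMIs in microglia-like nuclei, and there were 1193 and 943 oligodendrocyte-like nuclei. Scaled to CPM, neither difference passed 2-fold. For the oligodendrocyte-like nuclei the free RNA estimate, 446 and 254 UMIs, was above the count. Over all 20 classes and clusters the ratio of Epha7 ran from -0.75 to 0.38 (committed oligodendrocyte precursor-like nuclei) and that of Epha4 from -0.54 to 0.06 (Adarb2 inhibitory-like nuclei). Epha3 in cluster 14 was 934 and 604 (-0.63, -0.69 to -0.57).

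Cajal-Retzius-like nuclei, the early-born cells of the outer layer, had 1 member lower by 2-fold of 6 with minimum counts, beside 0.215% of all genes lower and 1.43% higher. Epha6 had 317 UMIs (310 CPM) in Control and 156 UMIs (137 CPM) in labelled KO (-1.18, -1.46 to -0.90). The difference came from female nuclei, with 581 and 83.6 CPM (-2.78, -3.38 to -2.26), while male nuclei had 127 and 147 (0.21, -0.32 to 0.76). Since the female nuclei of a library come from 1 mouse, this result rests on 1 animal per library. The log2 ratio of Epha6 in Cajal-Retzius-like nuclei was also under 2-fold with doublets kept (-0.081) and with a minimum of 1000 detected genes (-0.70). With free RNA subtracted no Epha6 UMI was left in either library, the estimate being 354 and 405 UMIs. That estimate is above the 317 and 156 UMIs counted and so too high, and the subtraction cannot test this call.

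The ligands were followed as a fixed list of 8 ephrins. In dentate granule-like nuclei 3 had minimum counts, and 1 of these was lower by 2-fold, beside 1.09% of all genes: Efna5, ephrin-A5, a ligand of EphA receptors, at 31.8 CPM in Control and 9.95 in labelled KO (-1.67, -1.84 to -1.52). It was -0.31 (-0.60 to -0.00) in cluster 1 and -1.19 (-1.85 to -0.65) in cluster 3, with 36.8 CPM in Control cluster 3 and 12 in Control cluster 1. With the Control mix of clusters in both libraries it was -1.12. That value leans on cluster 3, where labelled KO had only 25 Efna5 UMIs. Its counting error is therefore wide, as the cluster 3 interval shows, and it does not settle whether the difference stays past 2-fold. The largest rise was that of Efnb2, an ephrin-B ligand of Ephb1, at 16.6 and 22.5 (0.44). In CA3-like nuclei, where 2 of the 8 had minimum counts, Efna5 had 76.9 and 56.5 (-0.45, -0.54 to -0.35). Outside these fields Efna5 had 22.8 and 7.13 CPM in immature dentate granule-like nuclei (-1.66, -2.29 to -1.10) and 17.7 and 7.95 in astrocyte-like nuclei (-1.14, -1.6 to -0.72). It was 1 of 3 and 1 of 1 ephrins with minimum counts there, beside 0.378% and 0.138% of all genes lower. In CA2-like nuclei Efna5 went the other way, with 57 and 110 UMIs (16.6 and 43.8 CPM, 1.40, 0.93 to 1.89). This was 1 of 1 ephrins with minimum counts, beside 2.35% of all genes higher. In CA1-like nuclei, also with 2 of the 8, Efnb3 had 9.06 and 11.3 (0.32), and neither ligand passed 2-fold. The medians of the ligands were 0.32, -0.36 and 0.17 in granule, CA3-like and CA1-like nuclei, where the median over all genes with minimum counts was 0.02, 0.07 and 0.09.

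Of the 5 other Eph receptors, Epha10, a receptor without kinase activity, was the only one with minimum counts in these 3 classes. It was lower in dentate granule-like nuclei, at 44.4 and 9.95 CPM (-2.16, -2.32 to -2.00), but 9.85 and 9.23 (-0.10, -0.41 to 0.23) in cluster 1 and 53.1 and 26.6 (-0.98, -1.47 to -0.56) in cluster 3. It was 60.7 and 31.2 in CA1-like nuclei (-0.96, -1.07 to -0.85), with -1.26 (-1.39 to -1.13) in cluster 4 and 0.78 (0.47 to 1.11) in cluster 22, and 19.2 and 24.5 in CA3-like nuclei (0.35, 0.19 to 0.51). Outside these fields Epha10 was past 2-fold lower in CA2-like nuclei, at 75.5 and 27.5 CPM (-1.45, -1.86 to -1.07), beside 0.985% of all genes. The list of 24 signalling partners held exchange factors, adaptors, kinases, a phosphatase and a protease that act with Eph receptors. In dentate granule-like nuclei 0 of 21 with minimum counts passed 2-fold, beside 2.29% of all genes higher and 1.09% lower. The largest rise was that of Ptpro, a phosphatase that acts on Eph receptors, at 255 and 406 (0.67, 0.64 to 0.71), which was 0.10 in cluster 1 alone and 0.44 with the Control mix of clusters. The largest fall was that of Rasa1, a GTPase-activating protein of Ras, at 176 and 100.0 (-0.82, -0.87 to -0.76). In CA3-like nuclei 0 of 19 passed, beside 1.24% and 0.304%, with Vav3 at 59.5 and 85.2 (0.52) and the kinase Abl2 at 216 and 187 (-0.21). In CA1-like nuclei 1 of 21 passed, beside 3.39% higher and 0.644% lower: Ptpro at 32.4 and 96.1 (1.57, 1.47 to 1.67), at 33.6 and 122 in cluster 4 but 24.0 and 14.2 in cluster 22. The largest fall there was that of the kinase Src, at 23.2 and 17.8 (-0.38). The medians of the partners were -0.12, 0.03 and 0.12.

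Reads of overlapping genes bear on Ephb1. In GENCODE M21, 9630041A04Rik overlaps it on the opposite strand and Gm29388 lies in an intron on the same strand, and both are counted in the files; whether counting used strand is not given in the sources used here. Gm29388 had 0 UMIs in granule nuclei of both libraries, with upper counting limits of 0.068 CPM in Control and 0.096 in labelled KO. 9630041A04Rik had 59 and 165 UMIs in granule nuclei (1.97 on the log2 scale), or 1.01% and 0.935% of the Ephb1 count, so it was a nearly constant share of a count that differed more than 4-fold in CPM. In CA3-like nuclei it had 80 and 80 UMIs, 1.21% and 1.49% of Ephb1. How far the reads of such a pair were told apart depends on whether counting used strand.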

How the data were processed

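Single-nucleus RNA was measured in 2 pooled libraries of mouse hippocampus. The authors' deposited files give unnormalized UMI counts for each gene in each barcode, made with Cell Ranger 8.0.1 per the file headers on genome build mm39 per the submitters' processing notes; further filters are not given in the sources used here. Members and lists were chosen with earlier results of these data known. Nuclei with fewer than 500 detected genes or over 5% mitochondrial UMIs were removed, as were the doublets that Scrublet (scanpy 1.11.5) found in each library separately (12.9% and 10.9%). Both libraries were clustered together (3000 variable genes, 30 components, 15 neighbours, Leiden resolution 1) without the 22 Eph and ephrin genes, sex-linked marker genes or mitochondrial genes. A cluster was named from 23 fixed marker sets when at least 3 markers were raised with a mean log2 fold of at least 0.5 and its 10 leading genes did not hold more markers of another set. Nuclei left in unnamed clusters made up 16.9% and 20.0%.

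Sums of UMIs were formed per library for classes of 100 or more nuclei on both sides. A log2 ratio is labelled KO over Control in CPM, with 0.5 UMI added to each sum. Intervals at 95% are exact Poisson for levels, exact conditional binomial for ratios and Clopper-Pearson for shares, and cover counting error only. Differences between mice or preparations lie outside them. Sex was read from the UMIs of each nucleus: 2 or more of Xist with none from 4 Y-linked genes for female, 1 or more from those genes without Xist for male. All 9 members are named; pathway genes are named where they passed the size rule or had the largest rise or fall of their list in dentate granule-like, CA3-like or CA1-like nuclei. Genes alike were the top 3 by correlation, of which the first is given. The ratios were tested on simulated data with known folds. Alternatives were other scalings, doublets kept, each sex, thinning, other clusterings, free RNA subtracted and other minimums. A further 6, by cluster, were chosen after seeing the data, as were the clusters singled out by number and the cluster left out for low depth. An annotation of GRCm38 (GENCODE M21), which held 94.9% of the gene identifiers, was used for overlaps only.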

Additional observations from a re-analysis of the deposited data

Results flagged for a closer look

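Ratios of labelled KO over Control that lay on opposite sides of 0 in 2 groups of nuclei, with both counting intervals away from 0 and minimum counts in each, are given here; none of these differences was tested, since each group is 1 library. Between nuclear classes, Ephb1 was 2.09 for granule and -0.062 for CA3-like nuclei, the latter also against 1.02 for CA1-like nuclei. Epha5 was -0.36 for granule nuclei against 0.20 (CA3-like) and 0.27 (CA1-like). Epha6 was 0.20 in dentate granule-like against -0.12 in CA1-like nuclei, and 0.018 for CA3-like against the same -0.12. That CA1-like value was 0.04 in cluster 4 and -0.46 in cluster 22, and the granule value -0.01 in cluster 1 and 0.03 in cluster 3.

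Between female and male nuclei, which come from 1 and 2 mice of each library, the widest gap among the pairs with both intervals away from 0 was that of Epha3 in deep-layer excitatory-like nuclei, at 0.81 in female and -0.21 in male nuclei. Epha6 was lower in female and higher in male nuclei in 5 classes or clusters: immature dentate granule-like (-0.090 and 0.21), CA3-like (-0.11 and 0.13), cluster 7 (-0.14 and 0.16), subicular or cortical excitatory-like (-0.32 and 0.11) and deep-layer excitatory-like nuclei (-0.44 and 0.40). Epha5 showed the same order in subicular or cortical excitatory-like (-0.31 and 0.07), Lhx6 inhibitory-like (-0.12 and 0.10) and Adarb2 inhibitory-like nuclei (-0.27 and 0.07). Ephb1 was -0.19 and 0.10 in CA3-like nuclei and Epha7 -0.42 and 0.17 in cluster 7.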

How the results depend on the processing

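Ephb1 in dentate granule-like nuclei stayed higher by over 2-fold in all 12 alternatives, from 1.43 (cluster 1 alone) to 2.22 (female nuclei). The count of members past 2-fold there moved to 2 with a 1.5-fold rule, which added Epha3. No share of all genes past 1.5-fold is given, so counts at 1.5-fold, here and for CA1-like nuclei, have no background to be read against. In CA3-like nuclei the count was 0 in every setting run. In CA1-like nuclei, where Ephb1 was the 1 member, the count was 0 with median-of-ratios factors (Ephb1 at 0.91), TMM factors (0.91), doublets kept (0.85), male nuclei (0.90), thinning (0.52), the Control mix of clusters (0.38) and cluster 4 alone, and 2 at 1.5-fold. Ephb1 in CA1-like nuclei ran from -0.41 in cluster 4, where it reversed, to 1.34 in cluster 22. Epha6 in Cajal-Retzius-like nuclei reversed to 0.21 in male nuclei and also lost its call with doublets kept, a minimum of 1000 detected genes and free RNA subtracted. Epha3 in both oligodendrocyte classes lost its call with doublets kept, female nuclei, thinning and free RNA subtracted. For these Epha6 and Epha3 calls the free RNA estimate was above the count, so that setting could not test them. Where UMIs were left, the Epha3 ratio in the committed precursors stayed past 2-fold in 8 of 9 alternatives, with doublets kept the lowest at 0.56. In female nuclei of the committed precursors the ratio was 2.91. There, in male nuclei and after thinning, minimum counts were not reached. Ephb1 in cluster 7 lost its call when thinned (0.997), and Ptpro in CA1-like nuclei reversed to -0.76 in cluster 22. Epha10 and Efna5 in granule nuclei fell under 2-fold in cluster 1 alone (-0.10 and -0.31), and Epha10 also with the Control mix of clusters (-0.94). The cause of these changes was not tested. The alternatives by cluster were chosen after seeing the data. Ephb3 and Ephb6 reached the minimum in 1 and 6 of the 20 classes. In CA1-like nuclei, with 298 and 356 UMIs, they missed the minimum of 10 CPM, not that of UMIs. No paired analysis was possible because each group is 1 library and the labels give no replicate numbers.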
